A study of Homo sapiens with 6 samples.

Results

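EPAS1, which encodes the HIF-2 alpha subunit, was examined with 8 other genes of the hypoxia-inducible factor (HIF) system: HIF1A, HIF3A, ARNT, ARNT2, EGLN1, EGLN2, HIF1AN and VHL. They are 9 of the 16623 genes with an expression value, found by NCBI Gene ID, and all 9 were found. EPAS1 was picked because it was higher in each of the 4 comparisons of drug with solvent, so its direction there describes how it was selected and is not a finding. The other 8 are partners and regulators of EPAS1 and were not required to change.

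The cells were MDA-MB-231, a triple-negative breast cancer line, and the drug was PCI-24781, a pan-histone deacetylase (HDAC) inhibitor. Adherent cells received the solvent DMSO or PCI-24781 at 100 nM or 200 nM, for 24 h or 48 h. RNA-seq was carried out on 1 library per condition, 6 in all, so differences could not be checked against replicates and were not tested. The culture medium held serum and antibiotics, and no hypoxia treatment is named.

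HIFs are dimers of an oxygen-regulated alpha subunit (from HIF1A, EPAS1 or HIF3A) and a stable beta subunit (ARNT or ARNT2). When oxygen is present, the prolyl hydroxylases EGLN1 and EGLN2 mark the alpha subunits, which VHL then recognises for degradation, and the asparaginyl hydroxylase HIF1AN blocks their coactivator binding. This control acts on protein, whereas the values here are transcript levels, and in a bulk library fewer cells carrying a transcript and less of it per cell cannot be told apart.

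Expression is given as FPKM, fragment numbers corrected for gene length and library total, so that levels can be compared between genes. A change is the difference in log2(FPKM + 1) between a library with PCI-24781 and its time-matched DMSO library, and the added 1 understates the change of low genes. A gene counts as tested, which here means compared against the fold threshold with no significance test, when it reached an FPKM of 1 in either library, and it was called when it differed at least 2-fold on that scale. The files hold no counts. Depth inferred from the steps of low FPKM was about 16400000 to 18900000 fragments per library, and approximate 95% counting intervals (exact binomial, on the log2 ratio of FPKM with nothing added) cover counting error only, not the difference between cultures.

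The DMSO libraries differed from each other at more genes than either 48 h drug library differed from its DMSO library. At 48 h against 24 h in DMSO, 2.49% of 11490 tested genes were called higher and 0.131% lower. Time in culture, an exchange of libraries and a property of 1 library cannot be told apart, so EPAS1 is also given against the other DMSO library. Summed FPKM of 6 genes known to be expressed in MDA-MB-231 ranged from 2660.86 to 2946.85, and that of 6 luminal genes from 4.75 to 7.54.

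In the human genome build hg19, EPAS1 lies at chr2:46524541-46613842 on the plus strand. HIF1A lies at chr14:62162119-62214977, HIF3A at chr19:46800303-46846690, ARNT at chr1:150782181-150849244 and ARNT2 at chr15:80696692-80890278. EGLN1 lies at chr1:231499497-231560790, EGLN2 at chr19:41305048-41314346, HIF1AN at chr10:102295641-102313681 and VHL at chr3:10183319-10195354. These are whole gene spans, and an FPKM sums over the transcripts of a gene.

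The promoters of EPAS1 and HIF1A, the alpha subunit genes with the higher levels, are shown as a description. Whether their letters bear on any change was not tested. The 250 bases before the RefSeq start site in GRCh38.p14 are given 5′ to 3′ on the gene's strand, with GGGCGG and its reverse complement CCGCCC, the letters of the GC box, in capitals. HIF1A has a second RefSeq start site, and the window of the more upstream one is printed. The EPAS1 window is chr2:46297157-46297406 and the HIF1A window is chr14:61695263-61695512, both on the plus strand.
EPAS1: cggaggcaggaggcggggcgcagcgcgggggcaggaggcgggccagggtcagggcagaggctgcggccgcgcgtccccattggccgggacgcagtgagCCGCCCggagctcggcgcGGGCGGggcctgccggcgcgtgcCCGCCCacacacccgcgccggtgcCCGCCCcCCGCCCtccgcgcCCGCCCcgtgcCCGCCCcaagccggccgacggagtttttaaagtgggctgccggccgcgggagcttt
HIF1A: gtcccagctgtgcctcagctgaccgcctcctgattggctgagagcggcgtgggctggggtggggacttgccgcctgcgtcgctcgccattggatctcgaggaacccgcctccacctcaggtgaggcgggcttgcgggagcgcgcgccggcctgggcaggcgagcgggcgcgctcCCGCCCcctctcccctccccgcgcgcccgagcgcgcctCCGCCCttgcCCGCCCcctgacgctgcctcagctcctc
The EPAS1 window held the GC box letters 7 times, counted on both strands and with overlaps, and the printed HIF1A window held them 3 times. The second HIF1A window, chr14:61697462-61697711, held none and 3 CG dinucleotides, and 77.1% of windows held at least as many. At least 7 were found in 1.12% and at least 3 in 13.9% of 35116 RefSeq windows of the same length, and at least 1 in 42.6%. EPAS1 held 38 CG dinucleotides and the printed HIF1A window 29, against a median of 11, and at least as many were found in 3.28% and 14.1% of windows. The letters ACGTG, the core of one form of the hypoxia response element, were in neither window and in 18.5% of all windows, and GCGTG, the other form, occurred 1 time in each and in 32.2% of all windows. A match of letters is a description and not a binding site. For 7 of the 9 genes, 11 windows were matched, and 5 of these genes held GGGCGG or CCGCCC in at least 1 window. The HIF3A windows, which are not printed, held them 0, 2 and 0 times. EGLN1 held them 6 times and the ACGTG letters 1 time. The EGLN2 windows held them 5 and 3 times, with 35 and 38 CG dinucleotides, so a window as rich in CG as that of EPAS1 is not particular to EPAS1. The ACGTG letters were counted 2 times in the first EGLN2 window, both at 1 CACGTG site, which reads the same on each strand. The single ARNT and HIF1AN windows held no GC box letters.

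After 24 h, the FPKM of EPAS1 was 22.72 without drug, 34.47 with 100 nM and 60.84 with 200 nM. After 48 h, it was 28.89 without drug, 36.81 with 100 nM and 36.93 with 200 nM. Both DMSO libraries lay below all 4 drug libraries, and 200 nM 24 h stood above the rest. The 24 h changes were 0.58 for 100 nM and 1.38 for 200 nM, with counting intervals of 0.52 to 0.68 and 1.35 to 1.49. At 48 h it was 0.34 at each dose, with intervals of 0.28 to 0.42 and 0.28 to 0.43. EPAS1 therefore differed with dose after 24 h, where the step from 100 nM to 200 nM was 0.80 (interval 0.76 to 0.88), and hardly at 48 h, where the same step was 0.005 with an interval from -0.07 to 0.08.

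The time course of EPAS1 differed between doses. From 24 h to 48 h it was 0.33 higher in DMSO (interval 0.27 to 0.43) and 0.09 higher at 100 nM (0.03 to 0.16), and it fell by 0.71 at 200 nM (interval -0.78 to -0.66). The DMSO difference was about the size of each 48 h drug difference. Against the DMSO library of the other time, chosen as an alternative after the data were seen, EPAS1 was 0.25 and 1.05 higher after 24 h (lower and higher dose), and 0.67 and 0.68 higher after 48 h. EPAS1 was selected for its direction and the same libraries are reused, so that direction is not a finding. Its sizes at 24 h fell and its sizes at 48 h grew.

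Among all genes, the place of EPAS1 varied by comparison. Ranked from the most increased, it was 650th of 11475 and 191st of 11660 genes with 100 nM and 200 nM after 24 h, and 384th of 11514 and 661st of 11665 after 48 h. Its change passed the 95th percentile of all tested genes at 200 nM 24 h (0.95) and 100 nM 48 h (0.30), and stayed under it at 100 nM 24 h (0.62) and 200 nM 48 h (0.36). Of 11293 genes tested in all 4 comparisons, 1137 were higher in each by any amount. Among the 9 HIF genes, this held for EPAS1, which was selected for it. HIF3A, near the floor, was tested in none of the comparisons. Its smallest change, -0.02 at 100 nM 24 h, had a counting interval from -1.5 to 1.27.

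**Figure D1:**
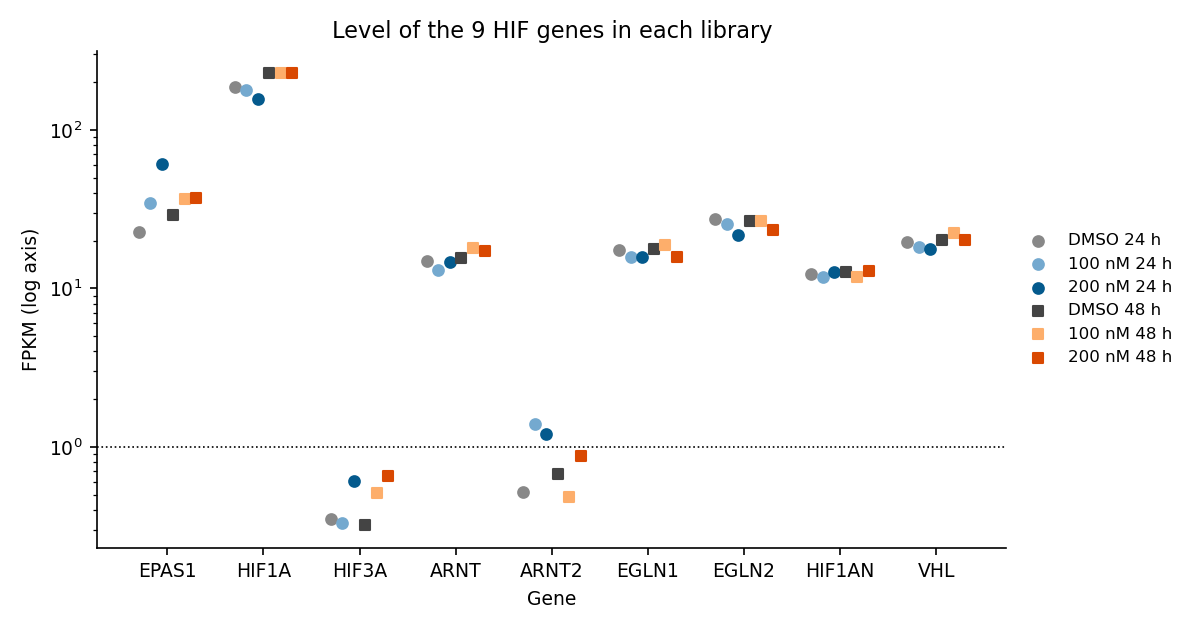
FPKM (log axis) of the 9 HIF genes in the 6 libraries, 1 point per library, with circles for 24 h and squares for 48 h; the dotted line is an FPKM of 1. HIF1A lies between 157.51 and 227.30, above every other gene, EPAS1 spreads from 22.72 to 60.84, and HIF3A stays under 1.

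HIF1A, the alpha subunit of HIF-1, had the highest level of the 9 genes in every library. Its FPKM after 24 h was 185.45 without drug, 178.98 with 100 nM and 157.51 with 200 nM. The values after 48 h were 227.09, 226.96 and 227.30 in the same order. It was lower with each dose at 24 h, with changes of -0.05 and -0.23 (intervals -0.09 to -0.01 and -0.27 to -0.20), while the 3 libraries at 48 h lay between 226.96 and 227.30. The time difference was 0.29 without drug, 0.34 with 100 nM and 0.53 with 200 nM, so HIF1A was higher at 48 h under every treatment. At 200 nM, EPAS1 and HIF1A moved in opposite directions between 24 h and 48 h.

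HIF3A, whose products include inhibitory forms, was near the floor. It had an FPKM of 0.35, 0.33 and 0.61 at 24 h (DMSO, 100 nM, 200 nM) and 0.32, 0.51 and 0.65 at 48 h, it was tested in no comparison, and every counting interval of its ratio to DMSO held 0. A difference in HIF3A was not detectable at this depth.

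EPAS1 was picked for being higher with drug, and HIF1A was level or lower there. A higher EPAS1 share and a lower ratio of HIF1A to EPAS1 with drug therefore follow from the selection and are not a finding. The sizes are given as a description. Of the summed FPKM of EPAS1, HIF1A and HIF3A, EPAS1 made up 10.9% without drug, 16.1% with 100 nM and 27.8% with 200 nM after 24 h. After 48 h its share was 11.3% without drug and 13.9% with each dose. The ratio of HIF1A to EPAS1 was 8.16 and 7.86 in the DMSO libraries, 5.19 and 2.59 after 24 h with drug (lower, then higher dose), and 6.17 and 6.15 after 48 h. HIF1A remained the more abundant transcript in all 6 libraries. The summed alpha FPKM itself ranged from 208.52 to 218.96 at 24 h and from 256.30 to 264.88 at 48 h.

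**Figure D2:**
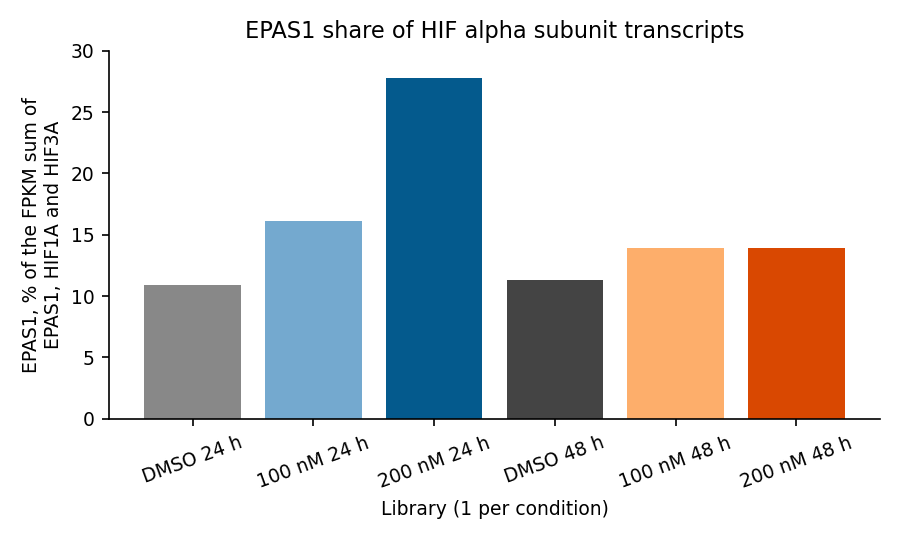
EPAS1 as a percentage of the summed FPKM of EPAS1, HIF1A and HIF3A in each library (bars, 1 library per condition, axis from 0). The DMSO bars reach 10.9% and 11.3%, the 200 nM 24 h bar 27.8%, and the 48 h drug bars 13.9% each. EPAS1 was selected for being higher with drug, so that the drug bars are higher is not a finding.

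ARNT, the main HIF beta subunit, had an FPKM of 14.81, 12.99 and 14.58 after 24 h (DMSO, 100 nM, 200 nM), then 15.54, 17.84 and 17.10 after 48 h. At 100 nM it was lower at 24 h (-0.18, interval -0.35 to -0.03) and higher at 48 h (0.19, interval 0.05 to 0.35), and the intervals at 200 nM held 0. ARNT was lowest at 100 nM 24 h and highest at 100 nM 48 h. The summed alpha FPKM was 13.6 to 15.8 times the sum of ARNT and ARNT2 over the 6 libraries, with no order by dose.

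ARNT2, a second beta subunit best known from neural tissue, was low throughout. Its FPKM after 24 h was 0.52 without drug, 1.40 with 100 nM and 1.2 with 200 nM. The 48 h values were 0.67, 0.48 and 0.88 in the same order. Both 24 h drug libraries were above the other 4. Its change was 0.66 and 0.53 at 24 h, and without the added 1 the log2 ratio was 1.43 (interval 1.0 to 1.86, about 64 and 168 fragments) and 1.21 (0.76 to 1.65). At 48 h the ratios were -0.48 (-1.0 to 0.01) and 0.39 (-0.06 to 0.83), so neither interval excluded 0. ARNT2 was called in no comparison, but would be at both 24 h doses with a pseudocount of 0.1. At 24 h it reached the minimum FPKM only in the drug libraries.

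None of the hydroxylase genes was called. EGLN1, the chief oxygen sensor, had an FPKM of 17.41, 15.75 and 15.87 after 24 h (DMSO, 100 nM, 200 nM), then 17.63, 18.72 and 15.82 after 48 h, with changes from -0.15 to 0.08. No counting interval of EGLN1 held 0. With the lower and higher dose they were -0.23 to -0.06 and -0.22 to -0.05 at 24 h. At 48 h they were 0.004 to 0.17 and -0.25 to -0.07. EGLN2, the prolyl hydroxylase that is not itself a HIF target, had 27.53, 25.64 and 21.55 after 24 h, then 26.79, 26.77 and 23.20. The 200 nM library was the lowest of its time for EGLN2, with changes of -0.34 at 24 h (interval -0.49 to -0.22) and -0.20 at 48 h (-0.34 to -0.07). HIF1AN ranged from 11.81 to 12.80, the narrowest range of the 7 genes with an FPKM above 1 in every library. Its changes ran from -0.10 at 100 nM 48 h, where the interval was -0.18 to -0.03, to 0.03 at 200 nM 24 h.

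VHL, the substrate receptor of the ubiquitin ligase that removes hydroxylated alpha subunits, had an FPKM of 19.51, 18.30 and 17.68 after 24 h (DMSO, 100 nM, 200 nM), then 20.28, 22.20 and 20.23 after 48 h. Its changes were between -0.13 and 0.12. The intervals at 200 nM 24 h (-0.28 to -0.01) and 100 nM 48 h (0.01 to 0.26) left out 0, and those of the other drug comparisons held it. VHL was lowest with 200 nM after 24 h and highest with 100 nM after 48 h.

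Across the 6 libraries, the order of levels was HIF1A, EPAS1, EGLN2, VHL, EGLN1, ARNT, HIF1AN, ARNT2 and HIF3A. Within a library, HIF1A was above EPAS1, EGLN2 above VHL, VHL above EGLN1, ARNT above HIF1AN and HIF1AN above ARNT2 in 6 of 6 libraries. The other neighbours changed places in 1 library each. EPAS1 was above EGLN2 except in DMSO 24 h, EGLN1 above ARNT except at 200 nM 48 h, and ARNT2 above HIF3A except at 100 nM 48 h.

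**Figure D3:**
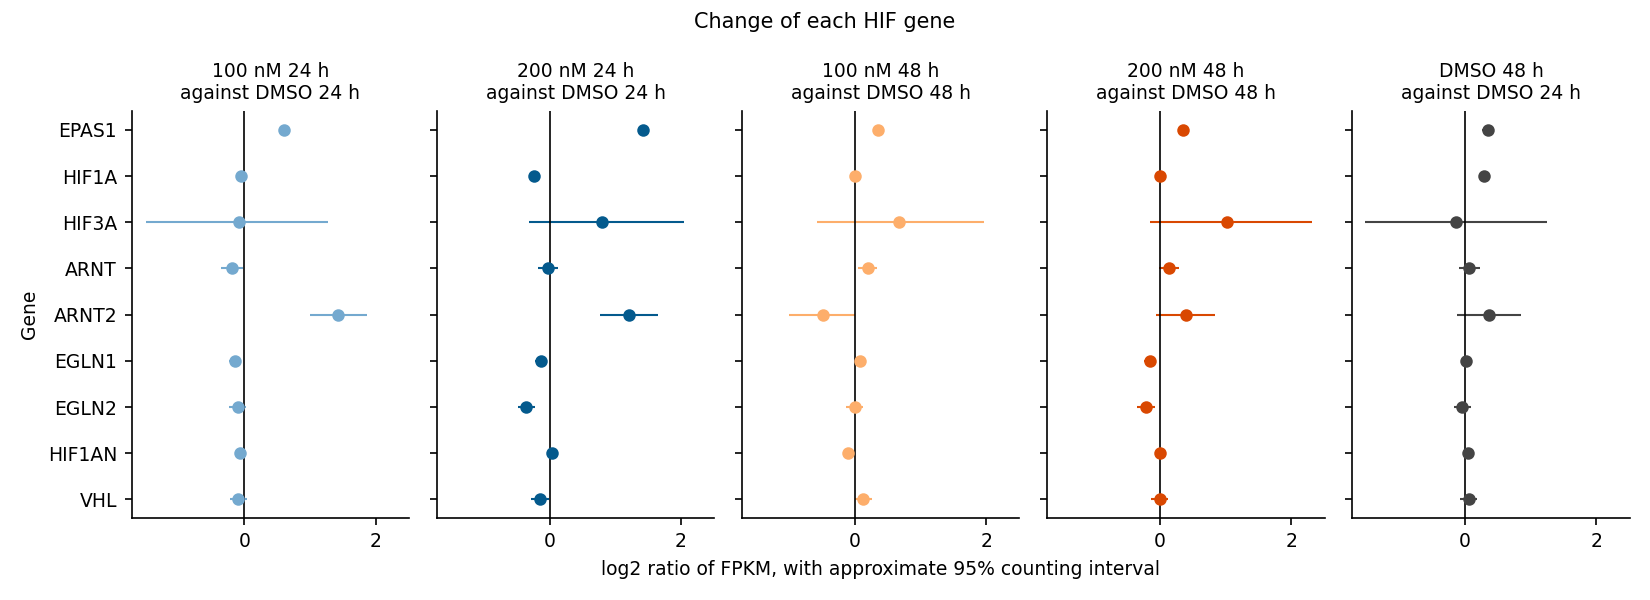
log2 ratio of FPKM (points) with approximate 95% counting intervals (lines) for the 9 HIF genes in the 4 drug comparisons and between the DMSO libraries. EPAS1 stands at 1.42 at 200 nM 24 h and at 0.35 with each dose at 48 h, and ARNT2 at 1.43 and 1.21 at 24 h with wide lines. Of the other 6 genes with an FPKM above 1, EGLN2 lies furthest from 0, at -0.35 at 200 nM 24 h.

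At 100 nM 24 h, 8 of the 9 genes were tested and 0 were called, where 1.35% of all tested genes were called higher and 0.131% lower. At 200 nM 24 h, 1 of 8, EPAS1, was called higher, where 4.47% of all genes were, and 0 were called lower, where 1.48% were. This is the contrast that EPAS1 was selected on, so nothing is read from that count. At 48 h, 7 genes were tested and 0 were called at either dose. The shares of all genes were 0.0608% higher and 0.408% lower at 100 nM, and 0.206% higher and 0.06% lower at 200 nM. Between the DMSO libraries 0 of 7 were called.

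Other genes of the pathway were read as 5 lists, described by their counts and medians. The hydroxylation and VHL list (14 genes, all tested) covers EGLN3 and the elongin, cullin and SIAH partners, and 0 of its genes were called in any comparison. Its median change was between -0.04 and 0.03 in the 4 drug comparisons, where the median of all tested genes lay between -0.01 and 0.01. EGLN3, the prolyl hydroxylase that HIF itself induces, had an FPKM of 1.40, 2.02 and 3.40 after 24 h (DMSO, 100 nM, 200 nM), then 3.21, 2.63 and 4.22 after 48 h. It stepped up with dose at 24 h like EPAS1, with changes of 0.33 and 0.87, but its 48 h changes were -0.21 and 0.31. The summed FPKM of EGLN1, EGLN2 and EGLN3 ranged from 40.82 at 200 nM 24 h to 48.12 at 100 nM 48 h. The alpha sum was 4.50 times it in DMSO 24 h and 6.13 times it at 200 nM 48 h.

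The bHLH-PAS list holds 14 genes of the protein family of the HIF subunits and its PAS-domain coactivators. Of these, 10 or 11 were tested and 0 were called, with medians from -0.08 to 0.04 in the drug comparisons.

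Among 14 coactivators and other HIF modifiers, 2 were called, CITED2 and CITED4, both higher at 200 nM 24 h. There, 4.47% of all tested genes were called higher, and the median of the list was -0.07. CITED4 reached the minimum FPKM there only in the library with drug, where it was high, so nothing is read from its call. CITED2, which competes with HIF alpha for CBP and p300, had an FPKM of 102.76, 131.19 and 213.44 after 24 h, then 149.16, 143.58 and 153.65 after 48 h. It changed by 0.35 and 1.05 after 24 h, then by -0.05 and 0.04. CITED4 was low, with an FPKM of 0.55, 0.96 and 2.65 after 24 h, then 2.03, 2.22 and 3.07 after 48 h, and it changed by 0.34 and 1.24, then 0.09 and 0.43. For both, DMSO 48 h was above DMSO 24 h, by 0.53 and 0.97. ACO1, the iron regulatory protein that can bind EPAS1 mRNA, differed by at most 0.13 in size, with an FPKM of 61.02, 56.61 and 61.32 after 24 h, then 58.47, 62.41 and 53.23 after 48 h.

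All 20 HIF-1-associated or shared targets were tested. Their median change was 0.05 and 0.25 after 24 h with the lower and higher dose, then 0.13 and 0.04 after 48 h, with 14, 17, 18 and 14 of 20 higher by any amount, where 51.6%, 51.2%, 47.2% and 51.0% of all tested genes were higher. The largest difference lay between the DMSO libraries. There the median was 0.62 and 20 of 20 were higher at 48 h, where 49.6% of all tested genes were. Of the 20, 4 were called there, NDRG1, PFKFB4, LOX and DDIT4 (the last 3 are named after their values were seen), and 1, NDRG1, was called at 200 nM 24 h. Of all tested genes, 2.49% and 4.47% were called higher in these comparisons. The direction of the list at 24 h rested on the DMSO library used. Against the mean of both DMSO libraries the 24 h medians were -0.19 and -0.02, and against the DMSO library of the other time they were -0.44 and -0.29 after 24 h, then 0.69 and 0.67 after 48 h. NDRG1, a stress-responsive gene often used as a hypoxia marker, had an FPKM of 100.63, 172.34 and 342.87 after 24 h, then 528.40, 554.72 and 687.69 after 48 h. It changed by 0.77 and 1.76 after 24 h, by 0.07 and 0.38 after 48 h, and by 2.38 between the DMSO libraries.

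Of 16 HIF-2-associated targets, 11 were tested. After 24 h their median was 0.29 with 100 nM (8 of 11 higher) and 0.51 with 200 nM (9 of 11). KDR is among the 11 at 24 h only through the drug libraries, where it was higher (FPKM 0.95 in DMSO, 1.38 and 1.90 with drug). With the minimum FPKM required in both libraries, the 24 h medians were 0.27 and 0.45. After 48 h it was -0.16 with 100 nM (4 of 11 higher) and 0.25 with 200 nM (10 of 11). Over all 16, low genes included, the medians were 0.13, 0.25, -0.06 and 0.16. Against the DMSO library of the other time, the medians of tested genes were 0.03 and 0.31 after 24 h, then -0.10 and 0.53 after 48 h. Of all tested genes, 51.6%, 51.2%, 47.2% and 51.0% were higher in the 4 comparisons. EPAS1 itself was 0.34 higher at 100 nM 48 h, where this list's median was below 0. Between the DMSO libraries the median of the 11 was 0.24, and 10 of 11 were higher at 48 h, where 49.6% of all tested genes were. There KDR passed the minimum only at 48 h, and with the minimum required in both libraries the median was 0.33. The list was thus also higher without drug, in as many genes as with 200 nM after 48 h.

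EDN1, which encodes the vasoconstrictor endothelin-1, was the 1 gene of this list that was called, at both 24 h doses, where 1.35% and 4.47% of all tested genes were called higher. Its FPKM was 6.68 without drug, 16.69 with 100 nM and 16.32 with 200 nM after 24 h. The 48 h values were 9.64, 4.61 and 13.62. The changes were 1.2 and 1.17 after 24 h, then -0.92 and 0.46 at 48 h, so 100 nM 48 h was the lowest library and the 24 h drug libraries the highest. CCND1, encoding cyclin D1, is named after its values were seen. It changed by 0.32 and 0.51 at 24 h, then -0.30 and 0.14.

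**Figure D4:**
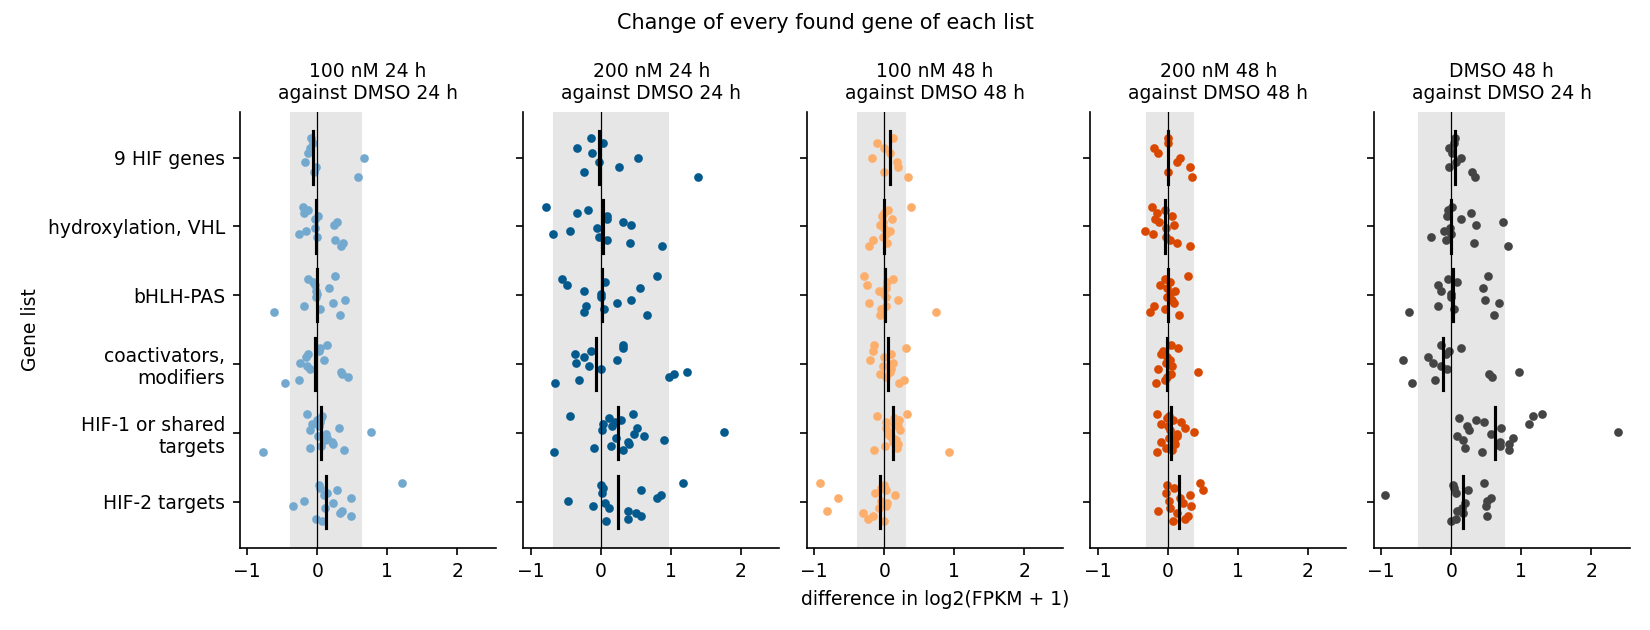
Difference in log2(FPKM + 1) for each found gene of the 9 HIF genes and the 5 lists (points), with the median over all found genes (black bars) and the 5th to 95th percentile of all tested genes (grey), in the 4 drug comparisons and between the DMSO libraries. The HIF-1 or shared targets lie to the right of 0 in 20 of 20 cases between the DMSO libraries, and the HIF-2 targets lie mostly above 0 at 24 h and below 0 at 100 nM 48 h.

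EPAS1 is a known endothelial gene, and the endothelial marker list was therefore summed. Its FPKM over 6 genes was 1.43, 2.24 and 3.31 after 24 h (DMSO, 100 nM, 200 nM) and 3.17, 2.55 and 5.19 after 48 h, carried mainly by PECAM1 and KDR. PECAM1 ran from 0.38 in DMSO 24 h to 2.33 at 200 nM 48 h, and KDR from 0.95 to 2.27 in the same libraries. TIE1 was at or under 0.43, and CDH5, VWF and TEK at or under 0.11, in every library. KDR, TEK and CDH5 are also in the HIF-2 list. The sum stepped up with dose at 24 h as EPAS1 did, but was highest at 200 nM 48 h, where EPAS1 was not, and its part in the EPAS1 values was not tested. The summed leukocyte markers (4 found of 5) ranged from 3.46 to 5.99.

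The genes most like EPAS1 were sought by Pearson's r of log2(FPKM + 1) over the 6 libraries, among 1233 genes that vary enough to compare. The 5 highest were FAM234A (0.990), ROGDI (0.989), ZMIZ2 (0.987), PRAG1 (0.984) and C11orf71 (0.982), and the next gene had 0.980. An r of at least 0.9 was reached by 60 genes, and 6 genes had the same order of the 6 libraries as EPAS1. With 6 points that share their libraries, such values are a description. ZMIZ2, a PIAS-like transcriptional coactivator, came closest in size at 24 h, with changes of 0.57 and 1.33 and an FPKM of 19.09, 28.87 and 49.43, but at 48 h its changes were 0.10 and 0.19. FAM234A had 7.11, 10.65 and 17.96 at 24 h and 10.03, 11.56 and 11.88 at 48 h. ROGDI was low, from 2.34 in DMSO 24 h to 6.06 at 200 nM 24 h, PRAG1 ran from 5.30 to 12.23, and C11orf71 from 1.04 to 5.77. All 5 were lowest in DMSO 24 h and highest at 200 nM 24 h, as EPAS1 was.

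The other HIF genes varied too little over the libraries to be among the genes compared. The genes named above were picked for the highest r, so the values below cannot be set against theirs. On the same measure, r with EPAS1 was 0.71 for HIF3A, 0.58 for ARNT2, 0.12 for HIF1AN, 0.002 for ARNT, -0.40 for VHL, -0.43 for HIF1A, -0.45 for EGLN1 and -0.87 for EGLN2. Among the other HIF genes, EGLN2 was thus the one whose levels ran most opposite to EPAS1. Its lowest FPKM, 21.55, was in the library where EPAS1 was highest.

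**Figure D5:**
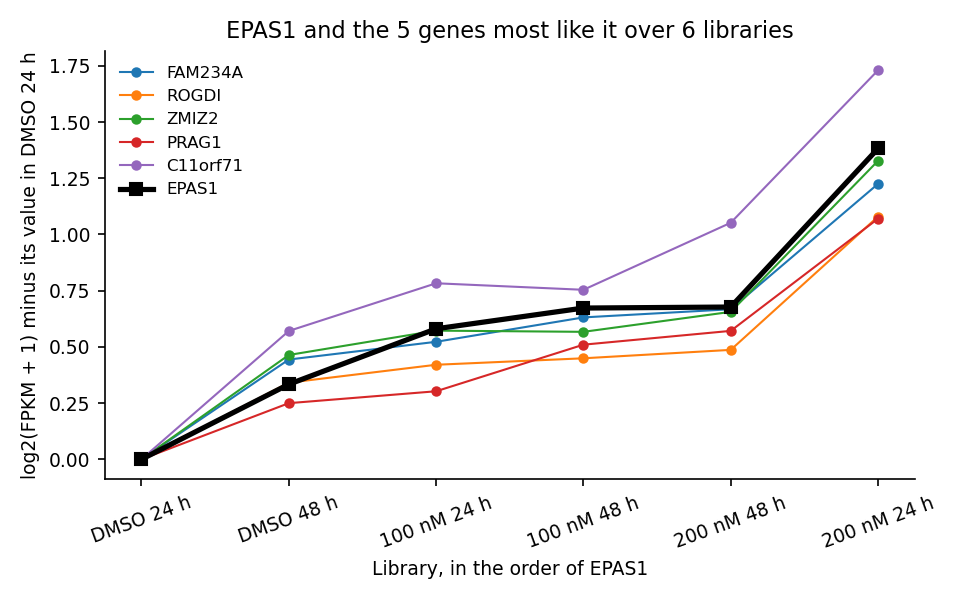
log2(FPKM + 1) relative to DMSO 24 h for EPAS1 (black) and the 5 genes most like it, with the libraries in the order of EPAS1. All 6 lines start at DMSO 24 h and peak at 200 nM 24 h, where EPAS1 is 1.38 higher and C11orf71 1.73 higher.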

How the data were processed

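The authors deposited FPKM values for 16623 genes in each of 6 libraries, rounded to 2 decimals. The submitters' processing notes name Bowtie2, RSEM and hg19, and the versions are not given in the sources used here. RSEM shares out reads that fit several transcripts, so FPKM are estimates. Gene IDs were named with the RefSeq table of GRCh38.p14, and 16585 matched. The 9 genes, the lists and the tests were chosen with earlier results of these data known.

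Differences in log2(FPKM + 1) were taken between libraries of the same time, with a minimum FPKM of 1 in either library and a 2-fold threshold. Named from each list were genes called in any of the 4 drug comparisons, at most 5 per list, together with EGLN3, CITED2, ACO1 and the 5 genes most like EPAS1. Depth was inferred from FPKM under 0.5 of single-transcript genes of 500 to 1500 bases (lengths from GENCODE 29). The scripts were tested on simulated data. Python 3.11.15, numpy 2.4.6, pandas 2.3.3, scipy 1.17.1 and matplotlib 3.10.9 were used. Other pseudocounts, filters, scalings and DMSO references were tried.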

Additional observations from a re-analysis of the deposited data

Results flagged for a closer look

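With 100 nM PCI-24781, 4 genes differed from DMSO in opposite directions at 24 h and 48 h. The difference between the times (48 h change minus 24 h change) was 0.36 for ARNT (-0.18 and 0.19), -0.83 for ARNT2 (0.66 and -0.17), -0.55 for EGLN3 (0.33 and -0.21) and -2.13 for EDN1 (1.2 and -0.92). With 1 library per condition these differences were not tested, and each time has a DMSO library of its own.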

How the results depend on the processing

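With 1 library per condition, no replicate could be left out. Pairing each dose with DMSO by time, or a model adding dose and time, was not run, and the times are given apart. Counting error is widest for HIF3A and ARNT2, while the variation between cultures is unknown for every gene. EPAS1 was selected for being higher, and the alternatives reuse the same libraries, so its direction under them is not a finding. A change of filter cannot move the change of a gene that passes it. Of the alternatives, the choice of DMSO library moved EPAS1 most. Against the mean of both DMSO libraries it was 0.41 higher with 100 nM after 24 h, and 0.51 and 0.51 higher with the lower and higher dose after 48 h, and against the DMSO library of the other time 0.25, 0.67 and 0.68.

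With a pseudocount of 0.1 or 0.01, ARNT2 was also called at 24 h, which gave 1 of the 9 genes with the lower dose and 2 with the higher, and a 1.5-fold threshold gave 1 (ARNT2) with the lower dose. Of 294 changes of the other 8 genes under alternatives, 261 stayed within 0.1 of the main value and on its side of the threshold, 4 newly passed it and 16 had another sign. The 261 include every change under another filter, where the value could not move, so their share overstates how stable the changes were.

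The medians of the lists moved as follows. Without the filter, HIF-2 targets had 0.125, 0.248 and -0.056 (both doses after 24 h, then the lower dose after 48 h) and bHLH-PAS genes 0.021 at 200 nM 24 h. Against the mean of both DMSO libraries, HIF-1 or shared targets had -0.193, -0.018, 0.363 and 0.411 (24 h, then 48 h, the lower dose first), which turns their direction at 24 h. HIF-2 targets had 0.36 and bHLH-PAS genes 0.036 with 200 nM after 24 h, while coactivators had -0.134 with 200 nM after 48 h.

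Against the DMSO library of the other time, HIF-1 or shared targets had -0.439, -0.292, 0.689 and 0.671, and coactivators 0.01, 0.082, -0.141 and -0.173. HIF-2 targets had 0.027 and 0.306 after 24 h and 0.528 with 200 nM after 48 h. With 100 nM after 48 h, the hydroxylation list had 0.133 and bHLH-PAS genes 0.133. Between the DMSO libraries, HIF-2 targets had 0.425 and 0.459 with pseudocounts of 0.1 and 0.01. By Spearman's rho, 3 of the 5 genes most like EPAS1 were kept.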

Other observations

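CA9, SLC7A5 and CYBRD1 were chosen after their values were seen. CA9, the carbonic anhydrase often used as a marker of HIF-1 activity, was low. Its FPKM was 1.28, 0.33 and 0.44 after 24 h (DMSO, 100 nM, 200 nM), then 2.10, 4.88 and 1.79 after 48 h. At 24 h it was near the floor and reached the minimum FPKM only in DMSO, so nothing is read from its lower values with drug. It changed by -0.78 and -0.66 after 24 h, then by 0.92 and -0.15. SLC7A5, an amino acid transporter of the HIF-2 list, had an FPKM of 100.11, 107.07 and 182.99 after 24 h, then 51.71, 57.78 and 64.50 after 48 h, so it was higher at 200 nM while being lower at 48 h than at 24 h in DMSO (-0.94). CYBRD1, an iron reductase of the same list, was lower with each dose at 24 h, with an FPKM of 54.30, 47.54 and 39.08, and had 77.66, 75.47 and 78.76 at 48 h.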
